A study of Mus musculus with 2 samples.

Results

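Slit ligands and their Robo receptors were followed in 2 single-cell RNA libraries of mouse mesoderm at embryonic day 9.5 (E9.5). The genes were taken by symbol, with earlier results of these data known. They are 2 ligand genes, Slit2 and Slit3, and 2 receptor genes, Robo1 and Robo2, each with 1 row among the 27998 genes of the files. Both libraries came from Swiss Webster embryos that carried the Mesp1Cre driver, which acts in early mesoderm, and 1 copy of a ROSA26-GFP reporter that the driver switches on. The control group (Ctrl) carried nothing further. The conditional knockout group (cKO) also carried loxP-flanked (flox) Tbx1 on both copies, so that the driver should inactivate this transcription factor gene in the Mesp1 lineage. Live GFP-positive cells were sorted from pooled embryos, from the pharyngeal apparatus and heart, and the 3′ ends of their transcripts were counted. Matched by cell number, the paper lists 2 embryos for each of these libraries, with more somites in the cKO embryos. This difference in stage runs with genotype, and its part in the ratios was not tested. Each group had 1 library, so no test between genotypes was possible, and each comparison describes these libraries and not the genotypes. The 95% intervals given throughout take in counting error and nothing else.

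Slits are secreted proteins that bind Robo receptors on the surface of the same or other cells. Binding acts through adaptor and GTPase-activating proteins on the actin cytoskeleton, and it is best known for repelling growing axons at the midline. In the mesoderm, the pathway is known for roles in cell migration and in heart tube and cardiac chamber formation. Slit2 (ENSMUSG00000031558) lies on GRCm38 chromosome 5, at 47981291 to 48307735, and Slit3 (ENSMUSG00000056427) on chromosome 11, at 35121456 to 35708507. Robo1 (ENSMUSG00000022883) and Robo2 (ENSMUSG00000052516) are neighbours on chromosome 16, at 72027518 to 73047491 and at 73891976 to 75447443.

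The ligand genes share a sequence that the choice of genes did not use. Each holds a hairpin of the microRNA miR-218, whose mature 5p form is spelled the same from both hosts and is known to act on Robo1 transcripts. RefSeq places it in Slit2 at chr5:48223966-48223986 and in Slit3 at chr11:35616840-35616860, on the plus strand of GRCm38.p6. It is shown because it links the ligand genes to a receptor gene, with the seed (bases 2 to 8) in capitals. The 3′ counts do not measure the microRNA itself.
miR-218-5p: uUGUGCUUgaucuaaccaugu

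RefSeq gave 6 promoter windows for the 4 genes, each of 300 bases around a start site, and 3 of them belong to Robo2, the gene of the 4 that differed most between the libraries in BrM-like cells. The Robo2 windows are printed below, 5′ to 3′ on the minus strand of GRCm38.p6, because the gene can start at places far apart. Capitals mark GGTGTG, the core of the motif bound by T-box factors such as the product of Tbx1, searched on both strands.
Robo2, chr16:75447244-75447543: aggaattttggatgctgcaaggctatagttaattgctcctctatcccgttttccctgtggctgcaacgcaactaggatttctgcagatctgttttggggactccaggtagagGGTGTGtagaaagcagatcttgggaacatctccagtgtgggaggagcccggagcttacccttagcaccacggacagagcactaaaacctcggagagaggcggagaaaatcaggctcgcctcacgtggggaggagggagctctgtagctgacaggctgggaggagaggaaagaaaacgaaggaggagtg
Robo2, chr16:75092721-75093020: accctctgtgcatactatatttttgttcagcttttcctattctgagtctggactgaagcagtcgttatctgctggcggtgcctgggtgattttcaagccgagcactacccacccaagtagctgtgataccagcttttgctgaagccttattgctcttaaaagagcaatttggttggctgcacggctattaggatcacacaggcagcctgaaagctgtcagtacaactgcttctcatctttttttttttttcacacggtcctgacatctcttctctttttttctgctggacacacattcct
Robo2, chr16:74411776-74412075: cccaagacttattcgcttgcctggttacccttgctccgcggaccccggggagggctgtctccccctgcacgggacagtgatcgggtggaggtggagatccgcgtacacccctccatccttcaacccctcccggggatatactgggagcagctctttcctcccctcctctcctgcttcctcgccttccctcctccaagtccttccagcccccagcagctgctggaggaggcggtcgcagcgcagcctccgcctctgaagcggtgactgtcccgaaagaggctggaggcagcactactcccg
The letters stood once, in the first window, with their first base 138 bases before the start site. They were in 19.0% of all 32851 promoter windows of this length, and in none of the other 5 windows of the 4 genes. A match of these letters is a description of the sequence and not a binding site.

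The targeted gene was read first. In multilineage primed progenitor-like (MLP-like) cells, Tbx1 (ENSMUSG00000009097) stood at 56.1 CPM (UMIs, or unique molecular identifiers, scaled to a total of 1000000 for each population and library) in the library labelled Ctrl and at 114 CPM in the library labelled cKO. At a log2 ratio of 1.02 (0.91 to 1.14), the target went against the label there. Its interval lay above 0 in 7 of 16 populations, most of all in sclerotome-like cells (17.3 and 86.0 CPM, or 2.31 as a log2 ratio), and held 0 in 8. It lay below 0 in 1, branchiomeric muscle progenitor-like (BrM-like) cells, at 119.5 and 96.6 CPM, or −0.31 (−0.43 to −0.18) as a log2 ratio. Reads of 3′ ends cannot tell a recombined Tbx1 transcript from an intact one. Higher and lower below refer to the cKO label as set against the Ctrl label, and not to a checked loss of Tbx1.

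After filtering, 6591 cells with 117490029 UMIs were kept in the library labelled Ctrl and 8969 cells with 136773792 UMIs in the library labelled cKO, with medians of 16854 and 14192 UMIs per cell. Only 15 barcodes occurred in both libraries. Neither the 4 genes nor the pathway genes listed for this report took part in clustering. The 16 populations with at least 50 cells in each library were 13 named from markers, whose names end in -like, and 3 unnamed clusters given by their leading genes. Cells with Xist but no Y-linked UMIs made up 51.1% and 56.7% of the libraries, and cells with Y-linked UMIs but no Xist 40.2% and 31.0%. These cells come from different embryos of a pool, and log2 ratios for each kind are given beside the main results. With so few embryos in each pool, each kind can stem from a single embryo, so that like values in both kinds are not replication.

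Slit2 was highest in somite-derived and muscle progenitor cells in the library labelled Ctrl. Dermomyotome-like cells stood at 26.4 CPM (21.0 to 32.9) and BrM-like cells at 23.6 CPM (20.7 to 26.8), and the intervals of these highest populations overlapped. Sclerotome-like cells followed among the named populations at 17.4 CPM (14.6 to 20.7). Epicardium-like cells were lowest, at 3.03 CPM (0.827 to 7.77) from 4 UMIs. In the library labelled cKO, BrM-like cells were highest, at 18.6 CPM (16.1 to 21.4), and dermomyotome-like cells stood at 8.98 CPM (5.41 to 14.0). Within endothelium-like cells, the cluster that Klf2, Hapln1 and the endocardial gene Nfatc1 lead had 18.7 CPM, and the cluster led by Cldn5, Emcn and Sox18 had 9.59 CPM in the library labelled Ctrl.

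Slit3 had another map and was highest in heart muscle and inflow tract cells. Cardiomyocyte-like (CM-like) cells stood at 41.8 CPM (36.2 to 48.0), posterior second heart field-like (pSHF-like) cells at 29.0 CPM (24.7 to 33.8) and sinus venosus-like cells at 23.8 CPM (20.1 to 28.0) in the library labelled Ctrl. The interval of CM-like cells lay above that of pSHF-like cells, and the latter overlapped that of sinus venosus-like cells. Epicardium-like cells, at 22.8 CPM (15.3 to 32.5), and foregut mesenchyme-like cells, at 21.3 CPM (19.0 to 23.8), also overlapped sinus venosus-like cells. BrM-like cells, at 4.34 CPM (3.15 to 5.83), and endothelium-like cells, at 3.14 CPM (1.92 to 4.85), were lowest. In the library labelled cKO, sinus venosus-like cells were highest, at 36.8 CPM (33.1 to 40.8), and overlapped CM-like cells at 34.6 CPM (30.6 to 39.1). The CM-like cells were not uniform. Of their 3 clusters, those led by Myh6 and by Myh7 and Tdgf1 had 49.7 and 52.8 CPM in the library labelled Ctrl, while the cluster led by Myl2, which encodes the ventricular myosin light chain, had 15.6 CPM. In the library labelled cKO the same clusters had 43.5, 35.0 and 14.3 CPM.

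In the library labelled Ctrl, both receptors were high in septum transversum-like and sinus venosus-like cells and lowest in CM-like, BrM-like and endothelium-like cells. Robo1 was highest in septum transversum-like cells, the mesoderm in front of the liver, at 75.6 CPM (68.0 to 83.9) in the library labelled Ctrl and 50.04 CPM (45.0 to 55.5) in the library labelled cKO. An unnamed cluster led by Barx1 and Ifitm1 followed at 54.6 and 36.8 CPM, and sinus venosus-like cells at 49.4 and 34.5 CPM, with overlapping intervals. CM-like cells were lowest in both libraries, at 11.9 CPM (8.98 to 15.4) and 6.69 CPM (4.98 to 8.80).

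Robo2 was highest in sinus venosus-like cells, at 156 CPM (146 to 166) and 115 CPM (108 to 122) in the libraries labelled Ctrl and cKO. Septum transversum-like cells came next, at 126 CPM (116 to 137) and 78.4 CPM (72.1 to 85.1), and both intervals lay below those of sinus venosus-like cells. At the low end of the library labelled Ctrl stood dermomyotome-like (9.58 CPM), CM-like (6.65 CPM), BrM-like (5.52 CPM) and endothelium-like cells (4.08 CPM), whose intervals overlapped from each population to the next. In the library labelled cKO, BrM-like cells had left this low group, at 27.6 CPM (24.5 to 31.0), and their interval lay just above that of MLP-like cells at 21.9 CPM (19.9 to 24.1). Erythroid-like cells, 159 cells of the library labelled cKO and none of the other, should lack all 4 genes and had 0.478 CPM of Slit2, 0 UMIs of Slit3, 1.44 CPM of Robo1 and 0.957 CPM of Robo2.

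**Figure D1:**
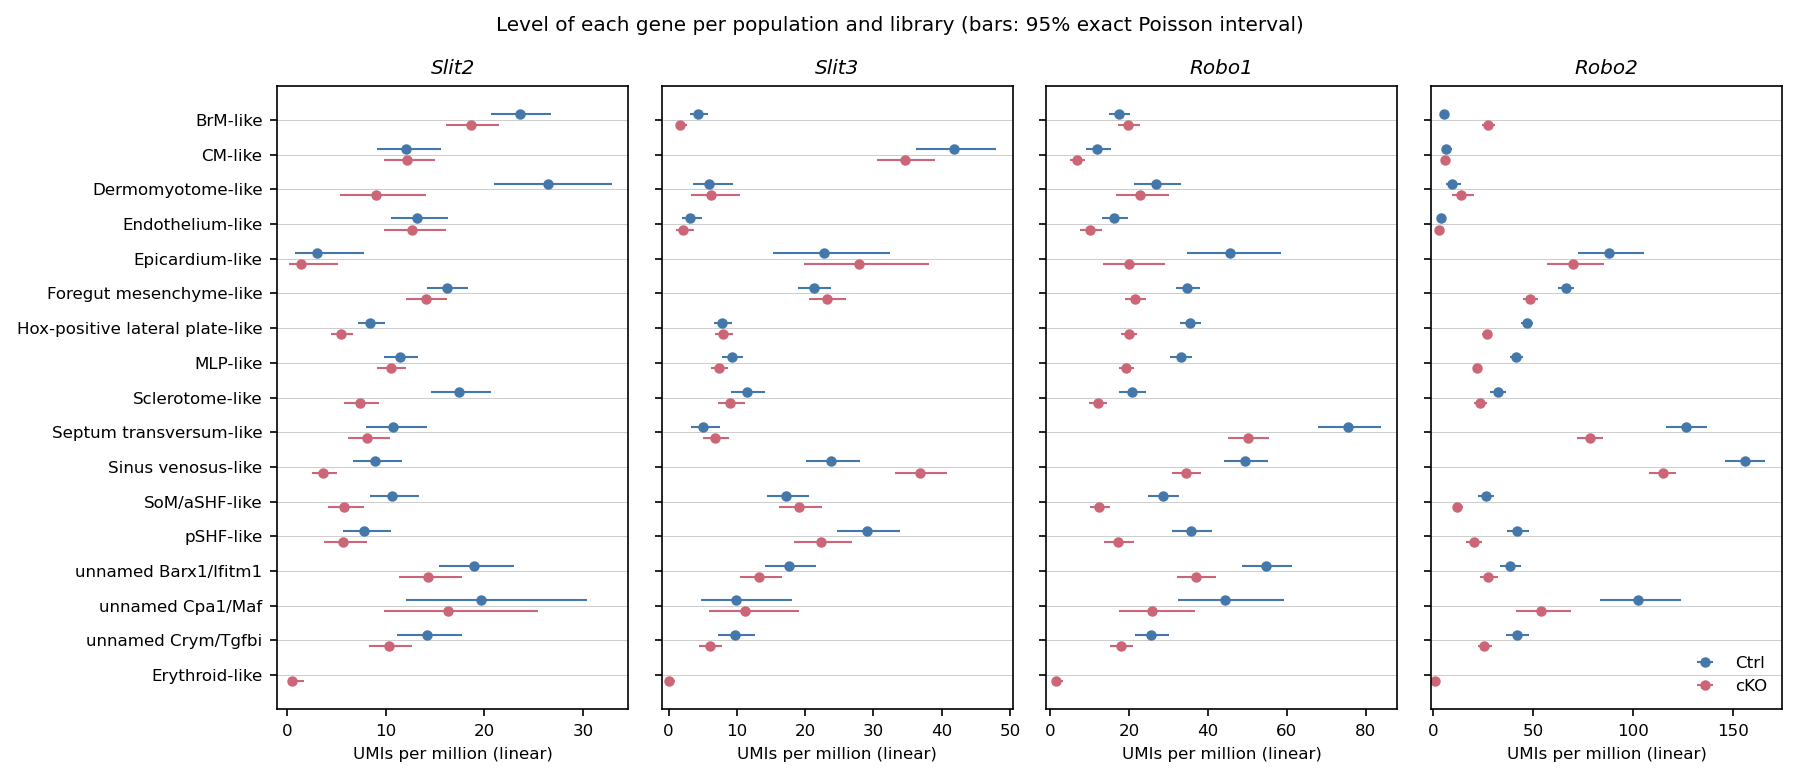
Level of each gene in CPM (linear axes, 1 panel for each gene) in 16 populations and in erythroid-like cells, by library (blue: Ctrl; red: cKO), with 95% exact Poisson intervals. Slit2 was highest in dermomyotome-like and BrM-like cells and Slit3 in CM-like cells, Robo1 and Robo2 were both high in septum transversum-like and sinus venosus-like cells, and Robo2 in BrM-like cells stood at 5.52 in Ctrl and 27.6 in cKO.

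Over the 16 populations, log2(CPM + 5) of Robo1 and Robo2 correlated at Pearson's r = 0.86 in the library labelled Ctrl and 0.78 in the library labelled cKO. Slit2 and Slit3 gave −0.43 and −0.49. These are descriptions over populations that share a library and its depth. Over all 32 points, the genes most like Robo2 were Bicc1 (r = 0.84), Plxnb2 (0.83), Plekha5 (0.82), Ephb2 (0.81) and Gadd45a (0.79), of which Plxnb2 and Ephb2 also encode receptors of guidance cues. Those most like Robo1 were Gon4l (0.93), Zmym4 (0.86), Cachd1 (0.84), Zfp618 (0.83) and, again, Plekha5 (0.83). For Slit3 they were Khdrbs3 (0.86), Smarcd3 (0.84), Tbx5 (0.81), Pawr (0.81) and Cfl2 (0.80), of which Smarcd3 and Tbx5 are heart field genes. For Slit2 they were Slc6a6 (0.78), Peli2 (0.77), Amt (0.76), Cebpzos (0.76) and Ralgps2 (0.75). The 7842 genes compared reached 20 CPM in at least 1 point.

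Between the libraries, the ratios of the ligands and receptors differed by population. A gene was read against the background only where it reached 20 CPM in a library and 30 UMIs in all, and was counted as different at or past 1.5-fold. Of the 64 values (4 genes in 16 populations), 33 reached this level, and 17 of them were lower and 2 higher in the library labelled cKO. Over all genes and the same 16 populations, 9.97% of 92636 values were lower and 2.78% higher. The level could be reached in a single library, as for Robo2 in BrM-like cells (5.52 and 27.6 CPM) and Slit2 in dermomyotome-like cells (26.4 and 8.98 CPM). Such a rule favours values that differ, in the 4 genes and in the background alike. The 2 higher values were Robo2 in BrM-like cells and Slit3 in sinus venosus-like cells. Robo1 gave 9 lower of the 13 values at this level and Robo2 7 of 13, so that nearly all lower values were those of the receptors. Slit2 gave 1 of 2 and Slit3 0 of 5. Relative to the median of genes that span over 300 kb, a class to which all 4 genes belong, 6 of the 33 values were lower and 2 higher past 1.5-fold, and the 6 were 3 of Robo1, 2 of Robo2 and 1 of Slit2.

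Genes of long span were lower in the library labelled cKO as a class. The 4 genes span from 326 kb (Slit2) to 1555 kb (Robo2). Over all kept cells, genes of up to 10 kb had a median log2 ratio of 0.07, and the median was −0.24 for 30 to 100 kb and −0.45 for the 81 genes over 300 kb, of which 33.3% were lower past 1.5-fold and none higher. Over the 16 populations, 33.6% of the 1350 values of such genes at the 20 CPM level were lower and 2.07% higher. In MLP-like cells the 85 genes over 300 kb had a median of −0.47, with quartiles of −0.80 and −0.23, and in BrM-like cells 84 such genes had a median of −0.52, with quartiles of −0.86 and −0.08, and 42.9% of them were lower and 9.52% higher past 1.5-fold. This share of higher genes was above that of each shorter span class in BrM-like cells and above the 3.13% of all genes. The median over all genes at the 20 CPM level was −0.09 in all kept cells, −0.07 in MLP-like and −0.11 in BrM-like cells. The part of gene span in the ratios of Robo1, Robo2 and Slit2 was not tested.

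**Figure D2:**
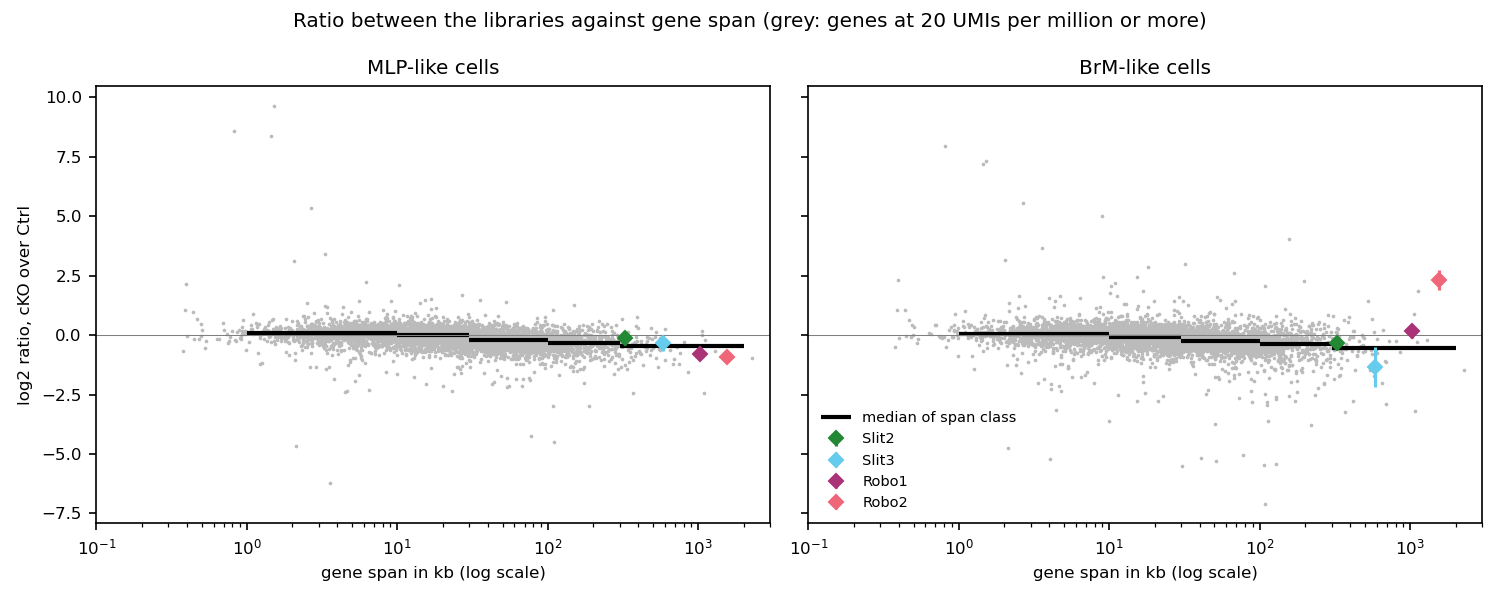
Log2 ratio of each gene (cKO over Ctrl, linear axis) against its genomic span in kb (log axis) in MLP-like and BrM-like cells, for genes at 20 CPM or more in a library and above 0 in both (grey), with the median of each span class (black bars) and the 4 genes with 95% intervals. In MLP-like cells Robo1 (−0.78) and Robo2 (−0.92) lay below the median of −0.47 for genes over 300 kb, and in BrM-like cells Robo2 (2.32) lay above the other genes of this class.

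Robo2 in BrM-like cells had the largest difference of the 4 genes. It stood at 5.52 CPM (4.17 to 7.17; 56 UMIs in 532 cells) in the library labelled Ctrl and at 27.6 CPM (24.5 to 31.0; 286 UMIs in 694 cells) in the library labelled cKO. This was 4.99-fold higher, or 2.32 (1.90 to 2.76) as a log2 ratio. In this population 3.13% of 5716 genes were higher past 1.5-fold and 12.6% lower. None of the 83 other genes over 300 kb had a ratio as high. Cells with Xist only gave 4.83 and 28.8 CPM, or 2.58 (1.99 to 3.21) as a log2 ratio, and cells with Y-linked UMIs only gave 6.45 and 26.1 CPM, or 2.02 (1.34 to 2.75) as a log2 ratio. The intervals of the libraries were apart in both kinds of cells. Under the alternative clusterings and scalings the ratio lay between 2.20 and 2.84.

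The difference was spread over many cells. A Robo2 UMI was found in 44 of 532 BrM-like cells labelled Ctrl (8.27%) and in 194 of 694 labelled cKO (28.0%), and 133 of the latter held 1 UMI, 45 held 2 and 16 held 3 or more, with at most 7. After each cell was thinned to 5000 UMIs, the shares were 3.396% (2.02 to 5.31) and 12.9% (10.5 to 15.6). Thinning left out 2 and 4 cells. Thinned erythroid-like cells had 0 of 159, which allows a share of up to 1.89%, at a median of 25427 UMIs before thinning against 14196 in BrM-like cells labelled cKO. The library labelled Ctrl held no erythroid-like cells, and the lowest share there was 1.96% (0.792 to 4.00) in endothelium-like cells, whose interval overlapped that of BrM-like cells.

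BrM-like cells also differed in their own markers. Lhx2 stood at 352 and 7.72 CPM in the libraries labelled Ctrl and cKO, Myf5, a master gene of skeletal muscle, at 50.6 and 1.35 CPM, and Ebf3 at 40.5 and 6.37 CPM. Tcf21 was at 334 and 151 CPM, while Msc, at 44.9 and 104 CPM, was higher in the library labelled cKO. The cluster was named from both libraries together, and its label rests on fewer of its 6 markers in the library labelled cKO. The part of these differences in the Robo2 ratio was not tested. In that library, the 194 cells with a Robo2 UMI had 117 CPM of Tcf21, 73.9 CPM of Msc and 71.2 CPM of Tbx1, and the 500 cells without one had 164, 117 and 107 CPM, at like median depths of 14206 and 14164 UMIs. Lhx2 stood at 6.10 and 8.36 CPM and Myf5 at 1.36 and 1.35 CPM in these groups, while Ebf3, at 10.2 and 4.85 CPM, went the other way. All values of these marker genes are descriptions of cells divided by Robo2. Markers of neural crest summed to 5.82 and 1.45 CPM over 5 genes, with Tfap2b at 0 UMIs in the library labelled cKO. The 5 endoderm genes summed to 9.37 and 8.78 CPM, with Cdh1 and Cldn6 at 0 UMIs in the library labelled cKO, and the 5 neural genes to 6.51 and 9.93 CPM, with Sox1 at 0 UMIs in both. In MLP-like cells the neural crest sum moved the other way, from 0.832 to 5.98 CPM with Foxd3 at 0 UMIs in both libraries, the neural sum stood at 5.63 and 13.8 CPM and the endoderm sum at 17.9 and 19.7 CPM. The part of such cells in the ratios was not tested.

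**Figure D3:**
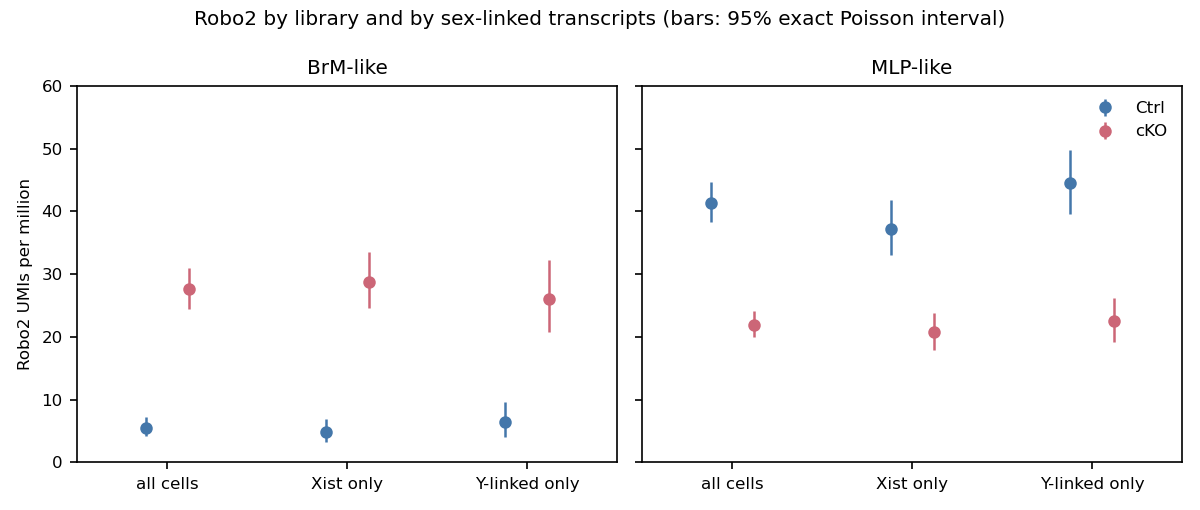
Robo2 in CPM in BrM-like and MLP-like cells, for all cells, cells with Xist UMIs only and cells with Y-linked UMIs only, by library, with 95% exact Poisson intervals. In BrM-like cells each cKO value (26.1 to 28.8) lay above each Ctrl value (4.83 to 6.45), and in MLP-like cells each cKO value lay below each Ctrl value.

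In the other populations, Robo2 was mostly lower in the library labelled cKO. Its interval lay below 0 in 11 of 16 populations, above 0 in 1 and held 0 in 4. All 11 were among the 13 values at the 20 CPM level. At that level, 33.3% of the values of all genes over the 16 populations had an interval below 0 and 19.5% one above 0, and of those of genes over 300 kb 64.9% lay below and 5.26% above. How often an interval leaves out 0 also depends on the UMIs of a gene, which were not matched here. The lowest ratios were those of the second heart field. Robo2 stood at 26.2 and 12.1 CPM in SoM/aSHF-like cells, named after the anterior second heart field and the somatic mesoderm beside it, or −1.11 (−1.49 to −0.74) as a log2 ratio. It stood at 42.0 and 20.3 CPM in pSHF-like cells, or −1.05 (−1.40 to −0.71) as a log2 ratio. In both populations each kind of cell gave an interval below 0. In MLP-like cells the values were 41.4 and 21.9 CPM, or −0.92 (−1.09 to −0.74) as a log2 ratio. Of 5794 genes in MLP-like cells, 9.96% were lower and 2.07% higher past 1.5-fold. Both MLP-like clusters gave the same direction, −0.99 and −0.72, as did cells with Xist only, −0.84 (−1.11 to −0.58), and with Y-linked UMIs only, −0.98 (−1.26 to −0.70). The thinned share of MLP-like cells with Robo2 was 17.4% (15.0 to 20.1) and 9.56% (7.94 to 11.4). Of the 84 other genes over 300 kb, 18 had a ratio at or below that of Robo2 in MLP-like cells.

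Over all kept cells Robo2 stood at 46.7 and 33.5 CPM, or −0.48 (−0.54 to −0.42) as a log2 ratio, but the kinds of cells gave unlike values. Cells with Xist only gave −0.14 (−0.22 to −0.06) and cells with Y-linked UMIs only −0.99 (−1.09 to −0.89). The 1 population with most Robo2, sinus venosus-like cells, held 108 cells with Xist only and 212 with Y-linked UMIs only in the library labelled Ctrl, and 548 and 111 in the library labelled cKO. Within it the log2 ratio was −0.09 (−0.29 to 0.13) in cells with Xist only and −0.88 (−1.16 to −0.61) in cells with Y-linked UMIs only. Sclerotome-like cells gave 0.14 (−0.22 to 0.50) and −1.38 (−1.87 to −0.89). In both populations the interval left out 0 in cells with Y-linked UMIs only, and the difference between the kinds of cells was not tested. In a sum over all cells, fewer cells of a type and less RNA per cell cannot be told apart. Relative to the median of genes over 300 kb, the ratio over all kept cells was −0.03.

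The Robo1 ratio was below 0 in 15 of 16 populations, and its interval lay below 0 in 14. At the 20 CPM level it did so in 12 of 13, against the 64.9% of genes over 300 kb, and 9 of the 13 were past 1.5-fold. Over all kept cells it stood at 32.7 and 20.5 CPM, or −0.67 (−0.74 to −0.60) as a log2 ratio, with −0.52 in cells with Xist only and −0.85 in cells with Y-linked UMIs only. Over all 5812 genes tested there, 8.34% were lower and 1.58% higher past 1.5-fold. The values were 28.5 and 12.4 CPM in SoM/aSHF-like cells, or −1.20 (−1.57 to −0.84) as a log2 ratio, and 35.7 and 17.1 CPM in pSHF-like cells, or −1.06 (−1.45 to −0.69) as a log2 ratio. MLP-like cells had 33.0 and 19.3 CPM, or −0.78 (−0.97 to −0.58) as a log2 ratio, and BrM-like cells, with 17.4 and 19.8 CPM, gave 0.19 (−0.11 to 0.49). In the first 3 of these populations each kind of cell gave an interval below 0, and in BrM-like cells both kinds gave one that held 0. Relative to the median of genes over 300 kb, the values of MLP-like and BrM-like cells were −0.31 and 0.71, and that over all kept cells was −0.22. Of the 85 other genes over 300 kb in SoM/aSHF-like cells, 4 had a ratio at or below that of Robo1 and 6 at or below that of Robo2. In MLP-like cells, 22 of 84 were at or below Robo1.

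**Figure D4:**
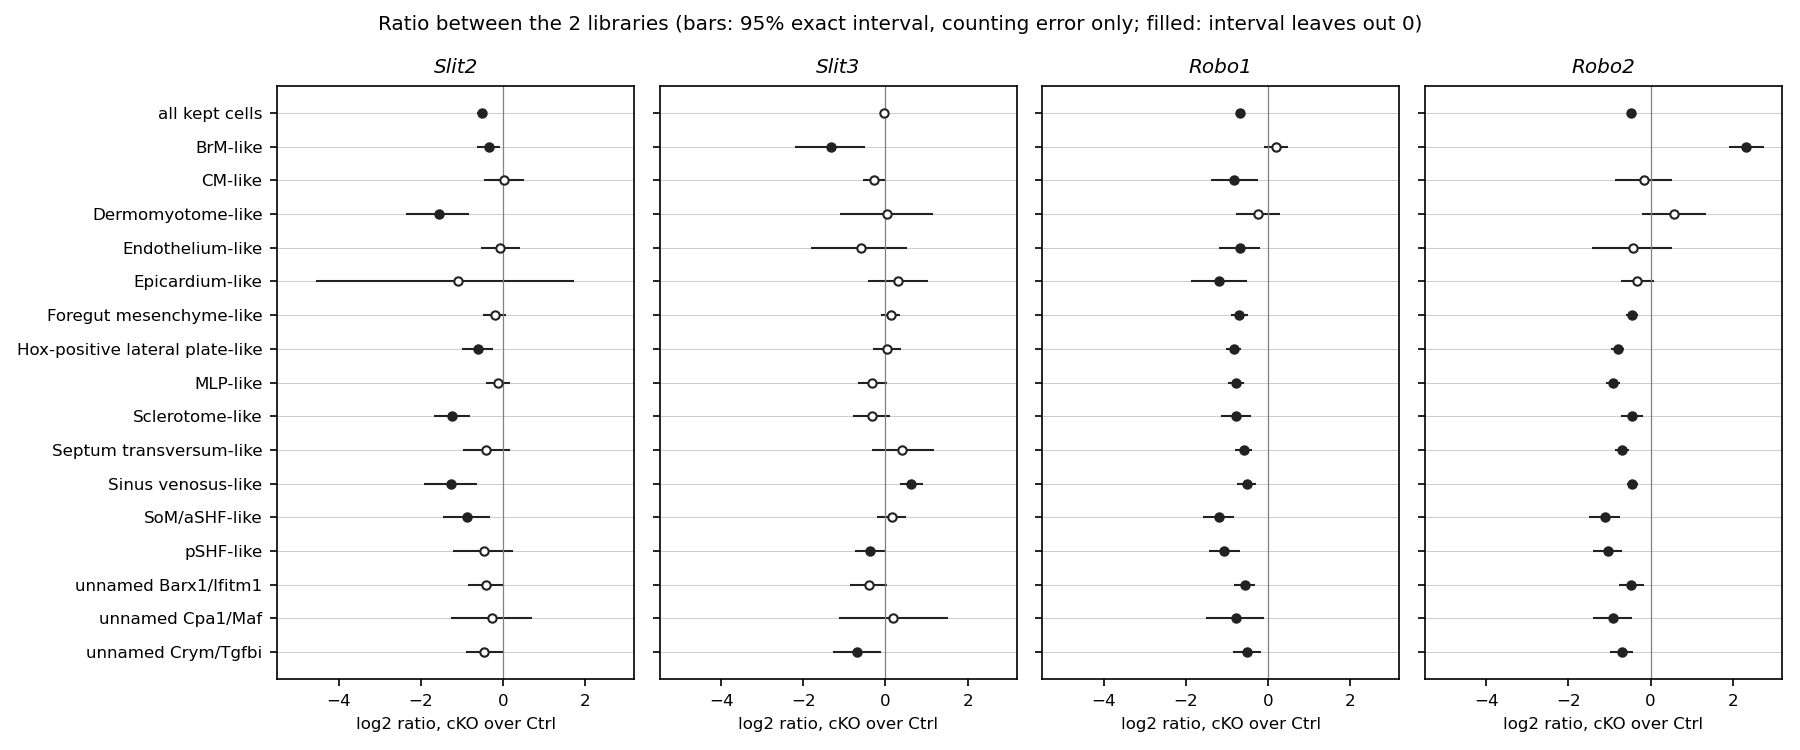
Log2 ratio of each gene (cKO over Ctrl) in all kept cells and in 16 populations, with 95% exact intervals (counting error only), filled where the interval leaves out 0. Robo1 was below 0 in 15 of 16 populations, Robo2 stood at 2.32 in BrM-like cells and below 0 in 14 populations, and Slit3 was below 0 in 8 populations and above 0 in 8.

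The interval of the Slit2 ratio lay below 0 in 6 of 16 populations, of which 2, dermomyotome-like and BrM-like cells, reached the 20 CPM level and can be set beside the background, and 1 of these was past 1.5-fold. At that level, 33.3% of the values of all genes and 64.9% of those of genes over 300 kb had an interval below 0. Dermomyotome-like cells gave 26.4 and 8.98 CPM, from 80 and 19 UMIs, or −1.56 (−2.36 to −0.82) as a log2 ratio. In these cells, 11.9% of all genes and 45.8% of genes over 300 kb were lower past 1.5-fold. Sclerotome-like cells had 17.4 and 7.38 CPM, or −1.24 (−1.68 to −0.81) as a log2 ratio, and sinus venosus-like cells 8.92 and 3.68 CPM, or −1.28 (−1.93 to −0.64) as a log2 ratio. In both of these populations the kinds of cells gave unlike values. Sclerotome-like cells gave −1.81 (−2.56 to −1.12) with Xist only and −0.41 (−1.23 to 0.47) with Y-linked UMIs only. Sinus venosus-like cells gave −0.22 (−1.27 to 0.96) with Xist only, so that the interval held 0, and those with Y-linked UMIs only had 27 UMIs in 212 cells labelled Ctrl (8.14 CPM) and 0 in 111 labelled cKO, which allows up to 2.05 CPM. Slit2 also stood at 10.7 and 5.79 CPM in SoM/aSHF-like cells, or −0.88 (−1.46 to −0.32) as a log2 ratio, and both kinds of cells gave intervals that held 0, at −0.70 (−1.46 to 0.03) and −0.92 (−1.95 to 0.04). Hox-positive lateral plate-like cells had 8.45 and 5.51 CPM, or −0.62 (−0.99 to −0.25), with −0.56 (−1.02 to −0.10) and −0.69 (−1.52 to 0.09) by kind of cell. Dermomyotome-like cells labelled cKO held 12 cells with Xist only and 85 with Y-linked UMIs only, against 87 and 46 labelled Ctrl. Those with Y-linked UMIs only gave −2.30 (−3.57 to −1.17). Those with Xist only gave −1.24 (−4.33 to 0.69), from 48 and 2 UMIs, so that the interval held 0. In BrM-like cells, where Slit2 was high, it stood at 23.6 and 18.6 CPM, or −0.34 (−0.62 to −0.06) as a log2 ratio that turned to 0.18 relative to the median of genes over 300 kb, and 49 of 83 other genes over 300 kb were at or below it. By kind of cell this ratio was −0.48 (−0.86 to −0.10) with Xist only and −0.24 (−0.75 to 0.26) with Y-linked UMIs only. In MLP-like cells, with 11.5 and 10.5 CPM, the ratio of −0.13 (−0.42 to 0.17) held 0, as it did in both kinds of cells (0.21 and −0.39). Over all kept cells Slit2 stood at 13.5 and 9.45 CPM, or −0.52 (−0.62 to −0.41) as a log2 ratio, with −0.53 and −0.49 in cells with Xist only and with Y-linked UMIs only.

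Slit3 did not differ beyond counting error over all kept cells, at 13.7 and 13.4 CPM, or −0.04 (−0.14 to 0.06) as a log2 ratio. In sinus venosus-like cells it stood at 23.8 and 36.8 CPM, from 144 and 360 UMIs, or 0.63 (0.35 to 0.92) as a log2 ratio, and none of the 103 other genes over 300 kb had a ratio as high. Cells with Y-linked UMIs only gave 1.10 (0.62 to 1.59) there and cells with Xist only 0.23 (−0.20 to 0.69). In BrM-like cells, where Slit3 was rare, it stood at 4.34 and 1.74 CPM, from 44 and 18 UMIs, or −1.32 (−2.20 to −0.50) as a log2 ratio, with −1.70 (−2.96 to −0.58) in cells with Xist only and −0.66 (−2.25 to 0.80) in cells with Y-linked UMIs only. MLP-like cells had 9.22 and 7.40 CPM, or −0.32 (−0.66 to 0.03) as a log2 ratio, and the kinds of cells gave 0.08 (−0.44 to 0.60) and −0.67 (−1.19 to −0.15) in the same order. In CM-like cells, where it was highest in the library labelled Ctrl, the values of 41.8 and 34.6 CPM gave −0.27 (−0.54 to 0.00). Here cells with Xist only gave −0.66 (−1.04 to −0.28) and cells with Y-linked UMIs only 0.25 (−0.21 to 0.72), so that the kinds of cells lay on opposite sides of 0. In pSHF-like cells the values of 29.0 and 22.3 CPM gave −0.38 (−0.74 to −0.02), which turned to 0.05 relative to the median of genes over 300 kb and was −0.53 (−1.11 to 0.04) and −0.20 (−0.73 to 0.31) by kind of cell. The differences between the kinds of cells were not tested.

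Single cells seldom held UMIs of 2 of the genes at a depth of 5000 UMIs. Robo1 and Robo2 were found together in 3.33% (2.91 to 3.79) of thinned cells labelled Ctrl and 2.01% (1.73 to 2.32) of those labelled cKO, and the products of their single shares were 2.59% and 1.40%. In MLP-like cells the share was 4.04% (2.83 to 5.58) against a product of 2.66%, and 1.02% (0.525 to 1.77) against 1.02% for the cKO label. BrM-like cells gave 0.189% (0.00478 to 1.05), 1 cell of 530, and 2.17% (1.22 to 3.56), 15 cells of 690. Slit3 and Robo2 occurred together most in sinus venosus-like cells, at 4.93% (2.95 to 7.68) and 6.01% (4.39 to 8.02), and the products were 5.52% and 5.94%. Ligand and receptor were thus found in the same cells there about as often as their single shares give. In BrM-like cells, Slit2 and Robo2 were found together in 0.755% (0.206 to 1.92) and 1.01% (0.409 to 2.08) of cells.

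The other genes of the pathway were read from a list of 41. Slit1, the ligand gene that is not among the 4, was below the 20 CPM level but nearly absent from the library labelled cKO. It had 167 UMIs (16.5 CPM) in BrM-like cells labelled Ctrl and 4 UMIs (0.386 CPM) in those labelled cKO, or −5.42 (−7.31 to −4.03) as a log2 ratio. In MLP-like cells it had 110 and 6 UMIs, or −4.53 (−6.01 to −3.36) as a log2 ratio. Cells with Xist only and with Y-linked UMIs only gave −5.07 and −5.69 in BrM-like cells. Robo3 had 2 and 3 UMIs over all kept cells and Robo4, a receptor of vessel cells, 51 and 34.

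Of the 41 genes, 21 reached the 20 CPM level in BrM-like cells, and 5 of them were lower and 0 higher past 1.5-fold. In MLP-like cells it was 4 lower and 0 higher of 22. Medians over these genes were −0.13 and −0.24, against −0.11 and −0.07 over all genes tested. The lower genes were 23.8% and 18.2% of the list's genes at that level, against 12.6% and 9.96% of all genes tested. Lower genes were 30.1% and 24.1% of genes of 100 to 300 kb and 42.9% and 40% of those over 300 kb. The spans of the list's genes were not matched. Among the ligand and receptor partners, Dag1, which encodes the Slit-binding surface protein dystroglycan, stood at 25.4 and 14.9 CPM in BrM-like cells and 29.2 and 15.5 CPM in MLP-like cells. Ext1, an enzyme that makes the heparan sulphate Slits bind, stood at 33.2 and 20.5 CPM in MLP-like cells, and Usp33, which recycles Robo1, at 28.6 and 17.1 CPM in BrM-like cells. Of the effectors, Srgap1, a GTPase-activating protein that binds Robo, differed most, with 20.5 and 5.11 CPM in BrM-like cells, or −2.005 (−2.47 to −1.56) as a log2 ratio, and 19.6 and 9.58 CPM in MLP-like cells, just under the level. The adaptor Nck2 was at 23.1 and 15.1 CPM in BrM-like cells and 21.2 and 13.4 CPM in MLP-like cells. Sos1, an exchange factor, was at 39.2 and 24.4 CPM in BrM-like cells, and Enah, an actin regulator, at 204 and 127 CPM in MLP-like cells.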

How the data were processed

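Gene expression was measured by droplet-based single-cell RNA sequencing in 1 library for each genotype, and samples were grouped by labelled genotype. The authors aligned reads to the mm10 genome and counted UMIs with Cell Ranger 3.1.0, named in the submitters' processing notes, and deposited raw UMI counts for the barcodes called as cells, with no normalization. Totals were 132017331 and 162874391 UMIs in 7418 and 10281 cells.

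Cells with at least 1000 genes and at most 10% mitochondrial UMIs were kept, which left out 411 and 508. Scrublet (scanpy 1.11.5) scored doublets, and since its own threshold called 0% in the library labelled Ctrl, the highest-scoring cells were removed at 0.8% per 1000 cells, 416 and 804 cells. Cells were clustered in Seurat 5.3.0 (R 4.3.3) at resolution 1 after reciprocal principal component integration, which stands in for the study's. First, 322 genes were left out. They were the 4 genes, the pathway list, Tbx1, other genes that the study reported, and mitochondrial, ribosomal, haemoglobin and sex-linked genes. These study genes included markers used for names, Isl1, Aplnr, Nrg1, Wnt5a, Grem1 and Fgf10 for MLP-like and Lhx2 and Myf5 for BrM-like cells. Then 1539 genes that differed between the libraries within provisional classes were left out. Of these, 551 had been variable genes in the first pass. Clusters were named from marker lists by share of markers found (at least 3, and over 50% of a list), where the 10 leading genes of a cluster held at least 1 marker of that list and no more of another. They were rebuilt here, so that a population can differ from that of the study for this reason alone.

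UMIs were summed by population and library. Sums carry exact Poisson intervals, ratios exact conditional intervals and shares Clopper-Pearson intervals at 95%. A count of 0 allows up to 3 counts. Shares were taken after thinning each cell to 5000 UMIs. Spans came from a RefSeq table of GRCm38.p6, which gave them for 22856 of 27998 genes and 95.6% of the genes tested over all kept cells.

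The genes named are the 4 Slit and Robo genes, Tbx1, pathway genes at or past 1.5-fold in MLP-like or BrM-like cells, Slit1, Robo3 and Robo4, and the 5 genes most like each. Marker genes of BrM-like cells, of other cell types and of cluster names are given as descriptions. The values of 1 marker gene of BrM-like cells are not reported here. The 4 genes and all lists were chosen with earlier results of these data known. The model that the study fitted takes cells as replicates and was left out. Alternatives were clustering at resolution 0.6, without integration, with doublets kept and as in the first pass, all cells of the matrices, median scaling, other thinning, fold and level limits, and, chosen after seeing the data, ratios relative to the median of genes over 300 kb.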

Additional observations from a re-analysis of the deposited data

Results flagged for a closer look

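The log2 ratio of Robo2 in BrM-like cells (2.32, cKO over Ctrl) ran against 11 of the other populations, whose intervals lay below 0. The log2 ratio of Slit3 in sinus venosus-like cells (0.63) ran against 3 populations with intervals below 0, BrM-like (−1.32), pSHF-like (−0.38) and the unnamed cluster led by Crym and Tgfbi (−0.69). With 1 library for each genotype, neither difference between populations was tested.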

How the results depend on the processing

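The ratios of the 4 genes were recomputed over all kept cells and in the 13 named populations, and not in the 3 unnamed clusters. Where the interval left out 0, each of these kept its side of 0 under the other clusterings, with presumed doublets kept and under scaling by the median ratio of expressed genes. Using all cells of the matrices was tried only for whole libraries, where it moved no ratio out of its interval. Of the 33 values at the 20 CPM level, 17 lower and 2 higher became 6 and 1 past 2-fold, and 6 and 2 relative to the median of genes over 300 kb, counts chosen after seeing the data. At a 10 CPM level, likewise chosen afterwards, 21 of 50 values were lower and 2 higher, and Slit2 gave 3 lower of 12. Of the values of genes over 300 kb, 30.8% were lower there. Under the first clustering pass, with 591 and 832 MLP-like cells in place of 874 and 1189, MLP-like cells gave 0.35 for Slit2, −0.78 for Slit3 and −1.22 for Robo2. Scaling by the median ratio over expressed genes gave −0.58 for Robo1 and −0.39 for Robo2 over all kept cells, which took Robo1 there just inside 1.5-fold, and gave 16 lower values in place of 17, with 8 in place of 9 for Robo1. The alternative relative to the median of genes over 300 kb shifts each value by construction. It gave −0.064, 0.41, −0.22 and −0.027 for Slit2, Slit3, Robo1 and Robo2 over all kept cells. MLP-like cells gave 0.35, 0.16, −0.31 and −0.44 in this order. BrM-like cells gave 0.18 for Slit2, which turned its direction, 0.71 for Robo1 and 2.84 for Robo2. Slit3 in pSHF-like cells turned to 0.053.

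The share of BrM-like cells with Robo2 was 1.51% (Ctrl) and 8.79% (cKO) when thinned to 3000 UMIs, and 8.27% and 28.0% without thinning. At 2-fold, the shares of genes lower and higher were 0.568% and 0.482% over all kept cells, 2.11% and 0.552% in MLP-like and 3.53% and 1.14% in BrM-like cells, and the pathway list had 0, 0 and 1 lower genes. With 1 CPM added, 2 of the 5 genes most like Slit3 were shared with those given, and 4 or 5 for the others.

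No paired analysis was possible because the labels give no replicate numbers and each genotype has 1 library. Leaving out a library was likewise not possible. At these depths Slit2 in epicardium-like cells rests on 4 and 2 UMIs, so no difference was detectable there. Intervals cover counting error only and not the spread between embryos.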
